A study of Homo sapiens with 24 samples.

Results

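The response described here is the effect of AM9747 that BXPC3, MIAPACA2 and PSN1 cells had in common, estimated as 1 treatment term with the cell line as a block. BXPC3, MIAPACA2 and PSN1 are established human pancreatic adenocarcinoma lines. The fit used 24 of the 24 libraries of the study, 4 in each of 6 groups: AM9747 at 100 nM in BXPC3, at 150 nM in MIAPACA2 and at 100 nM in PSN1, and DMSO vehicle in each line, all taken on day 6. The submitters describe the lines as MTAP-deleted, a loss that the treated and the vehicle cells share, while the genotype label reads WT in each library. No line with intact MTAP and no inactive compound was analysed here, each line stands for 1 tumour, and the higher dose in MIAPACA2 cannot be told apart from the line. Nothing in the labels says that replicates are separate cultures. The p-values thus cover the spread between these libraries only, with the lines treated as fixed. Differences in response between the lines count in that spread, so they widen the standard error of a gene with an uneven response.

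PRMT5 is the main enzyme that adds symmetric methyl groups to arginines of histones and of the Sm proteins, the ring proteins of the spliceosomal small nuclear RNPs. It works in a complex with WDR77 and is brought to its substrates by adaptors such as CLNS1A, RIOK1 and COPRS. Cells without MTAP accumulate methylthioadenosine, which competes with S-adenosylmethionine in the PRMT5 pocket, and the study describes AM9747 as a tool compound of the class that acts with methylthioadenosine. Loss of PRMT5 activity is known for retained introns and changed splicing, which counts summed over a gene do not resolve.

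Library totals lay between 22.4 and 45.6 M counts. Mitochondrial transcripts took 7.98 to 31.1% of the counts in PSN1 AM9747 and 17.4 to 43.8% in PSN1 vehicle libraries, with overlapping ranges in every line. PSN1 vehicle libraries stood furthest apart from each other, with a mean correlation to their own group of 0.8637 to 0.911 against 0.9396 or more in the other 5 groups. The lowest was PSN1 vehicle replicate 3, which also had the smallest total (22.4 M counts). It had 16646 genes detected, against 19398 or more in every other library. By a gap test at the 95% level, BXPC3 vehicle replicate 4 stood apart from the other 3 libraries of its group in 11 of the values so tested. Of the ductal markers, KRT8 and KRT18 were expressed in all groups, at 549 CPM or more on average with AM9747 and 347 CPM or more with vehicle. EPCAM, KRT7 and CDH1 were near 0 in MIAPACA2, at 0.962, 0.247 and 0.151 CPM with AM9747 and 0.0469, 0.103 and 0.14 CPM with vehicle. CDH1 was also low in PSN1, at 1.66 CPM with AM9747 and 0.491 CPM with vehicle. The 28 markers of leukocytes, endothelium, fibroblasts, acinar, endocrine and neural cells summed to 95.4 to 166 CPM in BXPC3 AM9747 and 96.9 to 156 CPM in BXPC3 vehicle. The sums were 61.5 to 106 CPM in MIAPACA2 AM9747 and 50.3 to 90.8 CPM in MIAPACA2 vehicle, and 187 to 332 CPM in PSN1 AM9747 and 178 to 311 CPM in PSN1 vehicle libraries. Of the 28, 6, 13 and 8 had no read in AM9747 and 8, 15 and 9 had none in vehicle libraries of BXPC3, MIAPACA2 and PSN1. Of the 17 that could be tested, 5 rose and 1 fell in common (29.4% and 5.88%, beside 9.02% and 8.74% of all genes tested). Only 3 rose without BXPC3 AM9747 replicate 1 or 2 or without PSN1 AM9747 replicate 2. In BXPC3 alone 4 rose and 2 fell, in MIAPACA2 alone none was called, and in PSN1 alone none rose and 2 fell. The 1 that fell in common, the trypsinogen gene PRSS1, stood at 0.344 to 1.96 CPM in PSN1 AM9747 libraries, against 80.1 to 106 CPM in PSN1 vehicle libraries. PRSS1 had no read in any MIAPACA2 library and was not called in BXPC3 alone (log2 -1.33, adjusted p 0.113). Its common call was lost without PSN1 (log2 -1.26, adjusted p 0.202) and in the mean of the line responses. The part of PRSS1 in other results was not tested.

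The first question was how many genes moved in common. AM9747 changed 4065 of 22883 genes tested (17.8%) at an adjusted p below 0.05 in edgeR's quasi-likelihood test. Of these, 2064 rose (9.02% of the genes tested) and 2001 fell (8.74%), and the median log2 change of all genes tested was 0.07. At least a 2-fold change was estimated for 920 of the rises and 657 of the falls. Without scaling beyond the total count the split was 3125 higher and 1190 lower, and the median of all genes stood at 0.22. Without BXPC3 the fit called 1965 genes, and the count ran from 3593 to 4443 when single libraries were left out.

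Most of the called genes moved the same way in each line. Of the 3321 called genes that could be tested in every line on its own, 2990 (90%) had the same sign in each, beside 5624 of 14476 (38.9%) of all genes so tested. The sign in the lines takes part in the call, so the gap between these shares is a description. AM9747 and vehicle libraries did not overlap in any line for 244 genes that stood higher (1.07% of the genes tested) and 291 that stood lower (1.27%). Fitted alone, BXPC3 called 5158 of 17638 genes (29.2%; 13.2% higher and 16% lower). MIAPACA2 called 2456 of 18090 (13.6%; 6.73% higher and 6.84% lower). PSN1 called 1954 of 18287 (10.7%; 4.52% higher and 6.17% lower). The biological coefficient of variation was 26.6% within BXPC3, 32.1% within MIAPACA2 and 55.1% within PSN1. Of the 3321 common calls tested in each line alone, 104 rises and 168 falls were also called in each line alone, and 235 rises and 211 falls in none. On the log2 scale a called gene moved by a median of 0.787 (BXPC3), 0.536 (MIAPACA2) and 0.927 (PSN1).

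**Figure D1:**
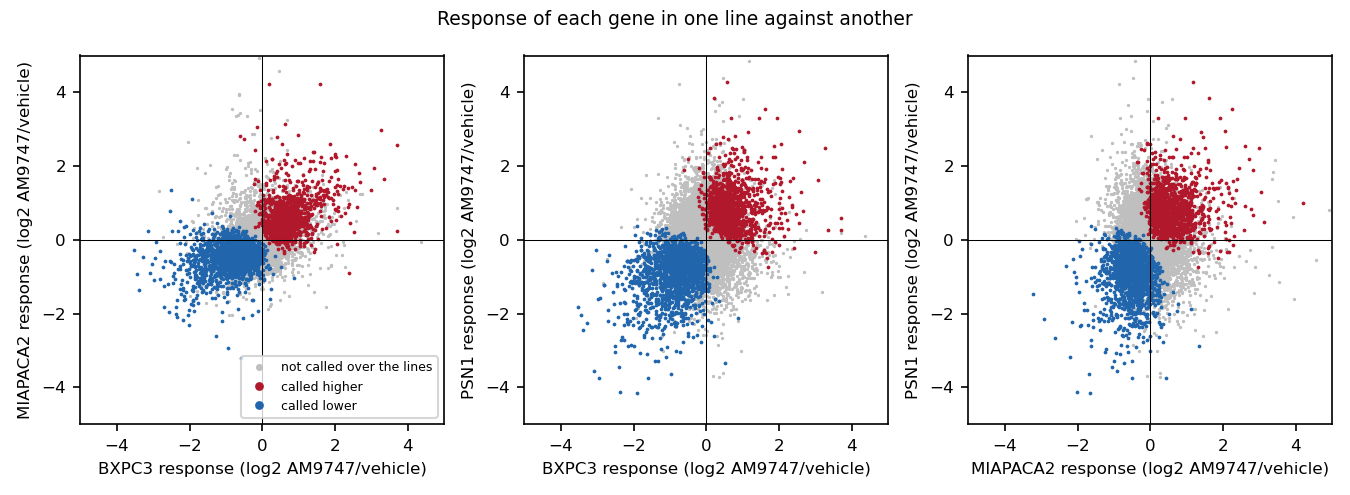
Log2 change (AM9747 over vehicle) of each of 11231 genes with a mean of 5 CPM or more, one line against another, with genes called over the lines as higher (red) or lower (blue) and the rest grey. Each point is a gene, 6 genes lie beyond the axes, and the cloud is narrowest around the diagonal for BXPC3 and MIAPACA2 (Pearson 0.456) and roundest for MIAPACA2 and PSN1 (0.156).

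Across these 11231 genes, the response in BXPC3 correlated with that in MIAPACA2 at a Pearson r of 0.456 and a Spearman rho of 0.474, and 66.7% of genes had the same sign. BXPC3 and PSN1 reached 0.343 and 0.303, with 59.6% of genes of the same sign. MIAPACA2 and PSN1 reached 0.156 and 0.133, with 52.6%. Genes are not independent replicates, and these values describe the plot of line against line. A test of the difference between the lines called 2764 genes (12.1% of those tested), among them 767 (18.9%) of the genes called in common. That count was 6105 without PSN1 vehicle replicate 1.

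The 12 largest common rises were taken among protein-coding genes with a mean of 5 CPM or more and the same sign in each line. Among them were genes of signalling, ion transport and the cell surface. PLCG1 (ENSG00000124181, GRCh38 chromosome 20, 41136960 to 41196801, plus strand), the phospholipase C that acts below receptor tyrosine kinases, had 303, 416, 541 and 672 CPM in BXPC3 AM9747 libraries, against 100.4, 105, 96.9 and 88.5 CPM in BXPC3 vehicle libraries. It had 710.1, 779, 447 and 653 CPM in MIAPACA2 AM9747 libraries, against 141, 124, 130.5 and 144 CPM in MIAPACA2 vehicle libraries. It had 469, 687, 1101 and 807 CPM in PSN1 AM9747 libraries, against 157, 327, 189.5 and 304 CPM in PSN1 vehicle libraries. The groups did not overlap in any line, and PLCG1 rose 4.21-fold in common (log2 2.07 ± 0.17, adjusted p 1.25e-08). AOC3 (ENSG00000131471, GRCh38 chromosome 17, 42851184 to 42858130, plus strand), an amine oxidase of the cell surface also known as vascular adhesion protein, had 2.65, 3.03, 3.88 and 3.91 CPM in BXPC3 AM9747 libraries, against 0.319, 0.318, 0.19 and 0.567 CPM in BXPC3 vehicle libraries. Its levels were 11.6 to 20.01 CPM in MIAPACA2 AM9747 libraries, against 1.35 to 2.95 CPM in MIAPACA2 vehicle libraries, and 24.7 to 57.3 CPM in PSN1 AM9747 libraries, against 2.67 to 10 CPM in PSN1 vehicle libraries. The groups did not overlap in any line, and AOC3 rose 9.64-fold in BXPC3, 7.95-fold in MIAPACA2 and 5.59-fold in PSN1 (log2 2.899 ± 0.24, adjusted p 1.25e-08 in common).

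CD274 (ENSG00000120217, GRCh38 chromosome 9, 5450503 to 5470566, plus strand), which encodes the immune checkpoint ligand PD-L1, had 30.2, 26.7, 21.99 and 18.9 CPM in BXPC3 AM9747 libraries, against 8.24, 8.68, 7.7 and 7.24 CPM in BXPC3 vehicle libraries. It had 8.88, 10.8, 11.4 and 8.25 CPM in MIAPACA2 AM9747 libraries, against 1.82, 2.47, 2.8 and 1.35 CPM in MIAPACA2 vehicle libraries. It had 7.2, 11.1, 8.76 and 8.64 CPM in PSN1 AM9747 libraries, against 0.875, 1.58, 0 and 0.491 CPM in PSN1 vehicle libraries. Every AM9747 library was above every vehicle library of its line, and the common rise was 5.35-fold (log2 2.42 ± 0.32, adjusted p 5.22e-06). JAK2, a tyrosine kinase of cytokine receptors on the same chromosome 9, rose 3.62-fold (log2 1.86 ± 0.25, adjusted p 9.15e-06). In BXPC3, JAK2 spanned 47.3 to 57.7 CPM with AM9747 and 14.8 to 32.4 CPM with vehicle. In MIAPACA2, JAK2 spanned 37.1 to 77.9 CPM with AM9747 and 13.7 to 15.7 CPM with vehicle. In PSN1, JAK2 spanned 32.99 to 59.6 CPM with AM9747 and 1.53 to 12.4 CPM with vehicle. Each JAK2 level with AM9747 was above each vehicle level of the same line. Among channels and their regulators, the kinase WNK4, which controls ion cotransporters, rose 5.09-fold (log2 2.35 ± 0.23, adjusted p 1.61e-07). In BXPC3, WNK4 spanned 3.94 to 6.72 CPM with AM9747 and 0.926 to 2.005 CPM with vehicle. In MIAPACA2, WNK4 spanned 34.9 to 72.4 CPM with AM9747 and 5.8 to 12.1 CPM with vehicle. In PSN1, WNK4 spanned 17.7 to 47.9 CPM with AM9747 and 2.65 to 10.3 CPM with vehicle. The voltage-gated potassium channel KCND1 rose 4.5-fold (log2 2.17 ± 0.26, adjusted p 1.41e-06). In BXPC3, KCND1 spanned 3.4 to 5.3 CPM with AM9747 and 0.243 to 0.933 CPM with vehicle. In MIAPACA2, KCND1 spanned 54.7 to 119.5 CPM with AM9747 and 12.5 to 31.7 CPM with vehicle. In PSN1, KCND1 spanned 16.4 to 38.9 CPM with AM9747 and 4.6 to 15.3 CPM with vehicle. For both genes MIAPACA2 held the highest levels and the groups did not overlap in any line.

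NOP2 (ENSG00000111641, GRCh38 chromosome 12, 6556863 to 6568691, minus strand), a nucleolar methyltransferase of ribosomal RNA, had 259, 318, 426 and 611 CPM in BXPC3 AM9747 libraries, against 83.2, 90.6, 90.03 and 127 CPM in BXPC3 vehicle libraries. It had 368, 397, 254 and 374 CPM in MIAPACA2 AM9747 libraries, against 110.4, 78.1, 86.7 and 107 CPM in MIAPACA2 vehicle libraries. It had 258, 384, 546 and 479 CPM in PSN1 AM9747 libraries, against 103, 123, 166 and 147 CPM in PSN1 vehicle libraries. NOP2 rose 3.59-fold (log2 1.85 ± 0.15, adjusted p 1.25e-08) with no overlap in any line and at closely spaced log2 values of 2.05 (BXPC3), 1.89 (MIAPACA2) and 1.58 (PSN1). MARCHF4, a membrane ubiquitin ligase, carried the largest fitted common rise of the 12 (log2 3.53). It had 39.6 to 53.7 CPM in BXPC3 AM9747 libraries, against 13.9 to 16.4 CPM in BXPC3 vehicle libraries. Its levels were 2.4 to 3.77 CPM in MIAPACA2 AM9747 libraries, against 0 to 0.275 CPM in MIAPACA2 vehicle libraries. In PSN1 it had 5.07, 3.8, 2.73 and 1.83 CPM with AM9747 and no read in any vehicle library, so the fitted common value is no bound on the change there. The matrix glycoprotein SPARC (log2 2.198), the Notch-modifying glycosyltransferase MFNG (log2 2.14), the oviductal glycoprotein OVGP1 (log2 1.82) and the meiotic chromosome axis protein SYCP2 (log2 1.81) complete the 12 largest rises. MFNG was the most uneven of these 4, at 3.697 (BXPC3), 2.58 (MIAPACA2) and 0.27 (PSN1) (adjusted p for a difference between lines 0.00155).

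**Figure D2:**
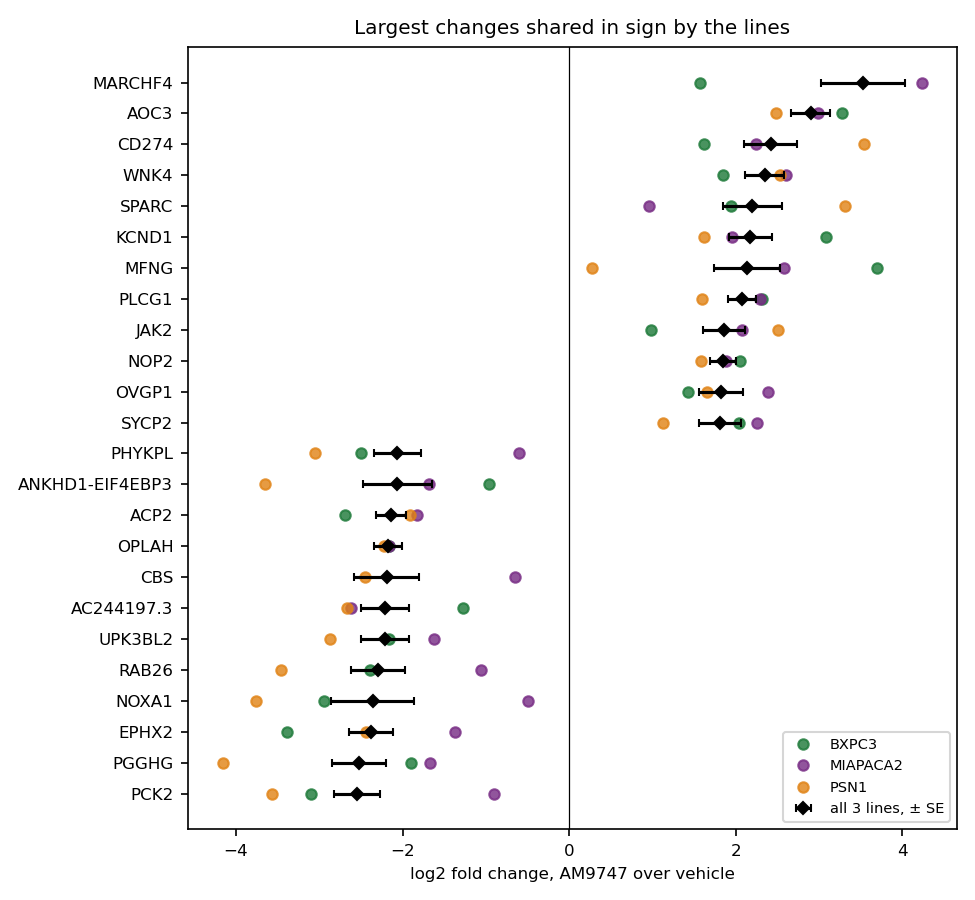
Log2 change (AM9747 over vehicle) of the 12 largest rises and 12 largest falls of protein-coding genes with a mean of 5 CPM or more and the same sign in each line. The common estimate with its SE is black and the estimate of each line alone is coloured. Lines in which a group had no read (MARCHF4 in PSN1, CBS in BXPC3) are not drawn; OPLAH and AOC3 have points close together and PCK2, PGGHG and MFNG points far apart.

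Among the 12 largest common falls of protein-coding genes, taken with the same limits on level and sign, were enzymes of amino acid, glutathione and glycan metabolism. OPLAH (ENSG00000178814, GRCh38 chromosome 8, 144051266 to 144063965, minus strand), the oxoprolinase that returns glutamate from the glutathione cycle, had 4.998, 5.67, 6.66 and 3.91 CPM in BXPC3 AM9747 libraries, against 22, 18.9, 24.8 and 29.9 CPM in BXPC3 vehicle libraries. It had 5.98, 6.03, 7.03 and 4.4 CPM in MIAPACA2 AM9747 libraries, against 26.1, 22.6, 24.2 and 33.9 CPM in MIAPACA2 vehicle libraries. It had 6.76, 7.12, 8.38 and 2.6 CPM in PSN1 AM9747 libraries, against 24.96, 26.9, 21.2 and 38.98 CPM in PSN1 vehicle libraries. The vehicle levels of the 3 lines overlapped and so did the AM9747 levels, with none shared between the groups, and the log2 changes were -2.17 (BXPC3), -2.16 (MIAPACA2) and -2.22 (PSN1) (common log2 -2.18 ± 0.17, adjusted p 6.75e-09). ACP2 (ENSG00000134575, GRCh38 chromosome 11, 47239302 to 47248906, minus strand) is a lysosomal acid phosphatase. In BXPC3, ACP2 spanned 4.78 to 5.7 CPM with AM9747 and 28.6 to 38.5 CPM with vehicle. In MIAPACA2, ACP2 spanned 7.82 to 12.03 CPM with AM9747 and 32.1 to 42.1 CPM with vehicle. In PSN1, ACP2 spanned 2.77 to 8.17 CPM with AM9747 and 11.5 to 19.4 CPM with vehicle. The groups did not overlap, and ACP2 was 4.4-fold lower in common (log2 -2.14 ± 0.18, adjusted p 1.25e-08).

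PCK2, which makes phosphoenolpyruvate in mitochondria, showed the largest common fall of the protein-coding genes at 5 CPM or more with the same sign in each line (log2 -2.55 ± 0.28, adjusted p 4.02e-07). In BXPC3, PCK2 spanned 8.43 to 13.9 CPM with AM9747 and 86.7 to 110.3 CPM with vehicle. In MIAPACA2, PCK2 spanned 23.9 to 33.1 CPM with AM9747 and 46.5 to 58.4 CPM with vehicle. In PSN1, PCK2 spanned 5.02 to 6.36 CPM with AM9747 and 52.8 to 95.7 CPM with vehicle. PCK2 fell in each line alone but by different factors, 8.56-fold in BXPC3, 1.88-fold in MIAPACA2 and 11.8-fold in PSN1 (adjusted p for a difference 2.99e-06). CBS, which condenses homocysteine with serine, had no read in any BXPC3 AM9747 library, against 1.82, 1.48, 1.14 and 1.54 CPM in BXPC3 vehicle libraries. In the other lines CBS had 30.9 to 35.7 CPM in MIAPACA2 AM9747 libraries, against 51.6 to 55.5 CPM in MIAPACA2 vehicle libraries, and 13.6 to 30.8 CPM in PSN1 AM9747 libraries, against 103 to 181 CPM in PSN1 vehicle libraries. CBS has a near-identical copy, so its counts are uncertain. The collagen-sugar glucosidase PGGHG (log2 -2.53), the soluble epoxide hydrolase EPHX2 (log2 -2.38), the NADPH oxidase activator NOXA1 (log2 -2.36), the vesicle GTPase RAB26 (log2 -2.300) and the hydroxylysine-degrading enzyme PHYKPL (log2 -2.06) fell as well. UPK3BL2 (log2 -2.21), which has a close paralog, the clone-named gene AC244197.3 (log2 -2.21), which overlaps other genes, and the readthrough gene ANKHD1-EIF4EBP3 (log2 -2.06) complete the 12, with uncertain counts.

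Further genes stood out by the smallest p rather than by size. Among the rises was IVNS1ABP, an actin-binding protein named for its binding to an influenza protein (log2 1.66 ± 0.14, adjusted p 1.25e-08). In BXPC3, IVNS1ABP spanned 178 to 274 CPM with AM9747 and 62.1 to 85.9 CPM with vehicle. In MIAPACA2, IVNS1ABP spanned 222 to 359 CPM with AM9747 and 101 to 112 CPM with vehicle. In PSN1, IVNS1ABP spanned 206 to 424 CPM with AM9747 and 60.9 to 106 CPM with vehicle. CLASP1, which tracks the plus ends of microtubules (log2 1.41 ± 0.13, adjusted p 4.43e-08), and the kinase MINK1 (log2 1.24 ± 0.12, adjusted p 8.87e-08) rose too. CLASP1 stood at 1.18 (BXPC3), 1.61 (MIAPACA2) and 1.41 (PSN1) and MINK1 at 1.29 (BXPC3), 1.12 (MIAPACA2) and 1.32 (PSN1). Among the falls was SUMF2, a paralog of the sulfatase-modifying factor (log2 -1.29 ± 0.11, adjusted p 1.64e-08). In BXPC3, SUMF2 spanned 35.2 to 48.4 CPM with AM9747 and 104 to 113 CPM with vehicle. In MIAPACA2, SUMF2 spanned 61.5 to 93.03 CPM with AM9747 and 144 to 236 CPM with vehicle. In PSN1, SUMF2 spanned 21.99 to 33.5 CPM with AM9747 and 51.6 to 73.3 CPM with vehicle. CLN6, an endoplasmic reticulum protein mutated in a neuronal lysosomal storage disease, changed by -1.25 (BXPC3), -1.33 (MIAPACA2) and -1.34 (PSN1) on the log2 scale, and SH3GLB2, an endophilin of membrane curvature, fell by more in BXPC3 and PSN1 than in MIAPACA2 (log2 -1.86 (BXPC3), -0.95 (MIAPACA2) and -2.05 (PSN1), adjusted p for a difference 0.0134).

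Of the genes that do not encode proteins, NEAT1 (ENSG00000245532, GRCh38 chromosome 11, 65422774 to 65445540, plus strand), the long noncoding RNA that scaffolds nuclear paraspeckles, had the smallest p of all genes tested. It had 83.4, 106, 114 and 132 CPM in BXPC3 AM9747 libraries, against 595, 491, 603 and 528 CPM in BXPC3 vehicle libraries. It had 367, 377, 278 and 319.7 CPM in MIAPACA2 AM9747 libraries, against 1181, 612, 868 and 1543 CPM in MIAPACA2 vehicle libraries. It had 229.5, 266, 352 and 282 CPM in PSN1 AM9747 libraries, against 1670.0, 1786, 1449 and 2230.0 CPM in PSN1 vehicle libraries. Each AM9747 library lay below each vehicle library of its line, and NEAT1 was 4.66-fold lower in common (log2 -2.22 ± 0.16, adjusted p 5.11e-09). LINC00894 fell further (log2 -2.81 ± 0.27, adjusted p 1.21e-07). In BXPC3, LINC00894 spanned 0.688 to 1.39 CPM with AM9747 and 4.46 to 6.77 CPM with vehicle. In MIAPACA2, LINC00894 spanned 1.68 to 3.05 CPM with AM9747 and 5.25 to 13.2 CPM with vehicle. In PSN1, LINC00894 spanned 0.821 to 1.06 CPM with AM9747 and 13.6 to 21.5 CPM with vehicle. The pseudogene RRP7BP (log2 -2.16) and AL022344.1 (log2 -2.06) also fell. SNORD3A, the U3 small nucleolar RNA of ribosomal RNA processing, rose, as far as poly(A) libraries hold it (log2 2.11 ± 0.29, adjusted p 1.25e-05). In BXPC3, SNORD3A spanned 1.02 to 2.75 CPM with AM9747 and 0.106 to 0.352 CPM with vehicle. In MIAPACA2, SNORD3A spanned 5.3 to 8.45 CPM with AM9747 and 1.41 to 3.78 CPM with vehicle. In PSN1, SNORD3A spanned 9.54 to 26.5 CPM with AM9747 and 1.26 to 7.1 CPM with vehicle. Its groups overlapped in no line. UCKL1-AS1 (log2 2.52), LNCOC1 (log2 2.14) and the processed pseudogene AC009299.1 (log2 2.13) were the other large rises, and strand use in the counting is not given, so reads of an antisense gene such as UCKL1-AS1 and of its partner cannot be told apart. The same limit holds for 71 of the 141 genes named here, which overlap an annotated gene on the other strand.

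**Figure D3:**
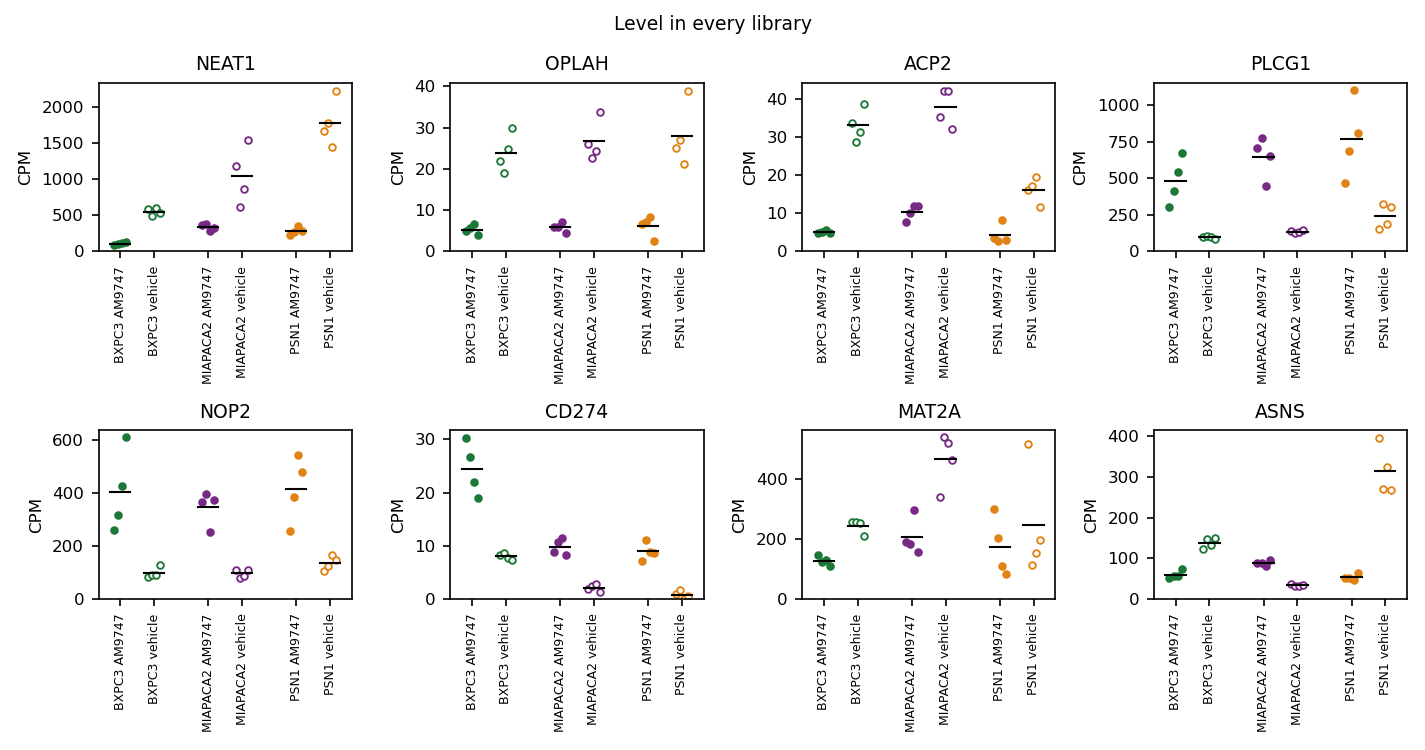
Level in CPM (linear axis from 0) of 8 genes in every library, AM9747 filled and vehicle open, with the mean of 4 libraries as a bar. NEAT1, OPLAH and ACP2 are lower and PLCG1, NOP2 and CD274 higher with AM9747 in each line without overlap, MAT2A overlaps in PSN1, and ASNS moves up in MIAPACA2 and down in the other lines.

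Of 5 members of the PRMT5 complex tested, COPRS rose and WDR77 fell (20% each), and without scaling 2 rose and none fell. Counts for this and the later lists stand beside 9.02% of all genes tested that rose and 8.74% that fell. Of protein-coding genes at a mean of 5 CPM or more, 11.5% rose and 13.5% fell. PRMT5 was not called in common (log2 0.40 ± 0.16, adjusted p 0.0849), although it was 1.93-fold higher in PSN1 alone (adjusted p 0.0328) and passed in some other settings, such as DESeq2 (log2 0.40, adjusted p 0.0454), but not with voom (log2 0.26, adjusted p 0.17). WDR77, the partner PRMT5 needs for activity, had 47.2, 53.3, 57.5 and 59.2 CPM in BXPC3 AM9747 libraries, against 73.9, 76.9, 76.5 and 107 CPM in BXPC3 vehicle libraries. It had 23.5 to 30.7 CPM in MIAPACA2 AM9747 libraries, against 31.2 to 40.2 CPM in MIAPACA2 vehicle libraries and 39.4 to 48.6 CPM in PSN1 AM9747 libraries, against 40.5 to 64.4 CPM in PSN1 vehicle libraries. WDR77 fell in common (log2 -0.45 ± 0.10, adjusted p 0.00237) with overlap in PSN1, and the call was lost without scaling (log2 -0.29, adjusted p 0.1) and without BXPC3 (log2 -0.37, adjusted p 0.0766). COPRS, the adaptor of PRMT5 to histones, rose (log2 0.71 ± 0.15, adjusted p 0.00111). In BXPC3, COPRS spanned 13.2 to 26.9 CPM with AM9747 and 9.31 to 18.8 CPM with vehicle. In MIAPACA2, COPRS spanned 22.6 to 29.99 CPM with AM9747 and 18.1 to 18.8 CPM with vehicle. In PSN1, COPRS spanned 35.5 to 50.6 CPM with AM9747 and 18.3 to 34.1 CPM with vehicle. The groups were separated in MIAPACA2 and PSN1 and overlapped in BXPC3, where vehicle replicate 4 stood above the other 3 vehicle libraries. CLNS1A, the adaptor to Sm proteins, was not called (log2 0.26 ± 0.21, adjusted p 0.419). Of 7 other arginine methyltransferases tested, PRMT2 fell (log2 -0.34 ± 0.10, adjusted p 0.0141) and none rose, and without scaling PRMT2 was not called (adjusted p 0.295).

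In the methionine and polyamine pathway, 3 of 19 genes rose and 3 fell, with a median log2 change of 0.06. MRI1, the isomerase that acts just after MTAP in methionine salvage, had 11.6, 11.6, 12.5 and 13.01 CPM in BXPC3 AM9747 libraries, against 21.2, 21.5, 23 and 22.7 CPM in BXPC3 vehicle libraries. It had 30.2 to 32.7 CPM in MIAPACA2 AM9747 libraries, against 44.05 to 57.3 CPM in MIAPACA2 vehicle libraries, and 16.99 to 21.9 CPM in PSN1 AM9747 libraries, against 32.3 to 45.1 CPM in PSN1 vehicle libraries. MRI1 was lower without overlap in each line (log2 -0.83 ± 0.09, adjusted p 3.89e-07). MAT2A, which makes S-adenosylmethionine, had 146, 121, 129 and 109.7 CPM in BXPC3 AM9747 libraries, against 257, 254, 250.4 and 209 CPM in BXPC3 vehicle libraries. It had 189.7, 182, 296 and 155 CPM in MIAPACA2 AM9747 libraries, against 338, 538, 518 and 461 CPM in MIAPACA2 vehicle libraries. It had 298, 201, 109.8 and 81.2 CPM in PSN1 AM9747 libraries, against 514, 113, 154 and 196 CPM in PSN1 vehicle libraries. MAT2A fell in common (log2 -0.87 ± 0.22, adjusted p 0.00572) and was separated in BXPC3 and MIAPACA2, while in PSN1 the groups overlapped. Without BXPC3 or without MIAPACA2 it was not called (log2 -0.85, adjusted p 0.102; log2 -0.74, adjusted p 0.0914). Of the synthases that make polyamines, SMS rose (log2 0.51 ± 0.13, adjusted p 0.00657) and SRM fell (log2 -0.43 ± 0.13, adjusted p 0.0173); SRM was not called without scaling (log2 -0.26, adjusted p 0.122) or with GC offsets (log2 -0.24, adjusted p 0.0647). MTAP itself averaged 1.2 CPM over the 24 libraries and was not called (log2 0.53 ± 0.40, adjusted p 0.41).

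The core spliceosome list held more rises than falls. Of its members, 14 of 43 were higher and 0 lower, with a median log2 change of 0.36; 32.6% rose, beside 9.02% of all genes tested and 11.5% of protein-coding genes at a mean of 5 CPM or more. Without BXPC3, 5 of the 43 rose, and without scaling 23. The list medians were 0.29 (BXPC3), -0.02 (MIAPACA2) and 0.49 (PSN1). DDX23, the helicase of the U5 particle, had 316, 331, 340.3 and 399 CPM in BXPC3 AM9747 libraries, against 145, 139, 131 and 129 CPM in BXPC3 vehicle libraries. It had 113 to 128 CPM in MIAPACA2 AM9747 libraries, against 62.5 to 85.8 CPM in MIAPACA2 vehicle libraries, and 237 to 316 CPM in PSN1 AM9747 libraries, against 63 to 93.3 CPM in PSN1 vehicle libraries. DDX23 was higher without overlap in each line (log2 1.23 ± 0.13, adjusted p 1.96e-07). The tri-snRNP proteins PRPF3 (log2 0.72 ± 0.14, adjusted p 0.000477) and SART1 (log2 0.62 ± 0.12, adjusted p 0.000733) rose too. PRPF3 stood at 1.32 (BXPC3), 0.41 (MIAPACA2) and 0.40 (PSN1) and was not called without BXPC3 (adjusted p 0.0969). SART1 was not called in MIAPACA2 or PSN1 alone (adjusted p 0.069 and 0.183). Among SR proteins and hnRNPs, 4 of 35 were higher and 2 lower, with a median log2 change of 0.19, with HNRNPH3 (log2 0.79 ± 0.10, adjusted p 2.17e-06) and RBM39 (log2 0.77 ± 0.15, adjusted p 0.000732) rising and SRSF5 falling (log2 -0.37 ± 0.11, adjusted p 0.0168); SRSF5 was not called without scaling, where 13 of the list rose and 0 fell, and without MIAPACA2 10 rose. RBM39 stood at 1.32 (BXPC3), 0.83 (MIAPACA2) and 0.15 (PSN1) and was not called without BXPC3 (adjusted p 0.0973). The response of 10 of the 35 differed between lines. In BXPC3 alone 12 were higher and 1 lower, in MIAPACA2 alone 2 were higher and 10 lower, and in PSN1 alone 4 were higher and 1 lower, at medians of 0.21 (BXPC3), -0.15 (MIAPACA2) and 0.47 (PSN1).

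Among the Sm, LSm and snRNP proteins, the substrates that PRMT5 methylates and their neighbours, 5 of 29 were higher and 1 lower (17.2% and 3.45%). The median log2 change was 0.35. The U2 proteins SNRPA1 (log2 0.57 ± 0.14, adjusted p 0.00572) and SNRPB2 (log2 0.69 ± 0.18, adjusted p 0.0101) rose, and SNRPA1 was not called with GC offsets (log2 0.40, adjusted p 0.0623). SNRPN, the imprinted Sm protein most expressed in neurons, fell (log2 -0.73 ± 0.10, adjusted p 8.75e-06), at -0.71 (BXPC3), -0.80 (MIAPACA2) and -0.68 (PSN1) in the lines; it shares its locus with overlapping transcripts. The number of rises in this list was 9 without BXPC3 vehicle replicate 4, 8 without PSN1 vehicle replicate 1 and 3 without PSN1 vehicle replicate 2 or 4. It was 1 without BXPC3, 9 without MIAPACA2, 3 without PSN1, 14 without scaling and 8 with GC offsets. Of 10 members of the SMN complex, which loads Sm proteins onto small nuclear RNAs, 4 rose and 1 fell (40% and 10%). Without PSN1 vehicle replicate 4, 2 rose. SMN2 rose (log2 0.44 ± 0.12, adjusted p 0.0104), though its reads are shared with the near-identical SMN1 and the call was lost with GC offsets (log2 0.29, adjusted p 0.166). Of 11 splicing kinases 2 rose, DYRK1A (log2 0.57 ± 0.18, adjusted p 0.032) and SRPK1 (log2 0.42 ± 0.14, adjusted p 0.0383), and their calls were lost without 6 and 11 of the 24 single libraries.

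The integrated stress response, the program run by the transcription factor ATF4 when amino acids are short or proteins misfold, split between the lines. Of its list, 1 of 30 were higher and 9 lower, with a median log2 change of -0.52; 30% fell, beside 8.74% of all genes tested and 13.5% of protein-coding genes at 5 CPM or more, and the response of 19 of the 30 differed between lines. Without BXPC3 4 fell, without PSN1 4 fell and without MIAPACA2 19 fell. The medians were -0.46 (BXPC3), 0.32 (MIAPACA2) and -1.19 (PSN1). ASNS, which makes asparagine, had 49.9, 55.8, 55.8 and 73.3 CPM in BXPC3 AM9747 libraries, against 122, 146, 132 and 149.9 CPM in BXPC3 vehicle libraries. It had 88.8, 89.1, 80.98 and 95.9 CPM in MIAPACA2 AM9747 libraries, against 36.2, 30.3, 31.5 and 33.3 CPM in MIAPACA2 vehicle libraries. It had 49.97, 51.1, 45.95 and 64.5 CPM in PSN1 AM9747 libraries, against 397, 271, 324 and 269 CPM in PSN1 vehicle libraries. All groups were separated, with AM9747 lower in BXPC3 and PSN1 and higher in MIAPACA2, and its response differed between lines (adjusted p 5.21e-10). ASNS was not called in common (log2 -0.86 ± 0.38, adjusted p 0.124), nor with voom or the other scalings and filters. It was called by DESeq2 (log2 -0.86, adjusted p 0.0411) and in the mean of the line responses (log2 -0.79, adjusted p 7.93e-07). Without MIAPACA2 it was called too (log2 -1.92, adjusted p 1.41e-05). CHAC1, which degrades glutathione, fell in common (log2 -1.63 ± 0.39, adjusted p 0.00418) and its response differed between lines (adjusted p 6.52e-08). In BXPC3, CHAC1 spanned 11.3 to 12.3 CPM with AM9747 and 31.8 to 44.4 CPM with vehicle. In MIAPACA2, CHAC1 spanned 4.78 to 6.88 CPM with AM9747 and 2.95 to 4.94 CPM with vehicle. In PSN1, CHAC1 spanned 3.07 to 5.32 CPM with AM9747 and 42.9 to 73.3 CPM with vehicle. The CHAC1 groups overlapped in MIAPACA2, and the call was lost without BXPC3 (log2 -1.66, adjusted p 0.104) and without PSN1 (log2 -0.63, adjusted p 0.115). PSAT1, of serine synthesis, fell in each line (log2 -1.66 ± 0.22, adjusted p 5.55e-06). In BXPC3, PSAT1 spanned 33.5 to 35.4 CPM with AM9747 and 141 to 192 CPM with vehicle. In MIAPACA2, PSAT1 spanned 63.5 to 70.9 CPM with AM9747 and 74.5 to 93.9 CPM with vehicle. In PSN1, PSAT1 spanned 19.8 to 26.6 CPM with AM9747 and 77.2 to 173 CPM with vehicle. DDIT4, an inhibitor of mTORC1, fell as well (log2 -1.13 ± 0.12, adjusted p 2.42e-07).

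ATF3, a stress-induced transcription factor counted in the same list, was the 1 member that rose. It had 52.1, 49.1, 45.5 and 46.8 CPM in BXPC3 AM9747 libraries, against 29.8, 22.6, 21.5 and 25.99 CPM in BXPC3 vehicle libraries. It had 7.87, 8.77, 8.56 and 7.03 CPM in MIAPACA2 AM9747 libraries, against 3.13, 2.47, 2.13 and 3.1 CPM in MIAPACA2 vehicle libraries. It had 19.7, 19, 11.6 and 15.4 CPM in PSN1 AM9747 libraries, against 4.58, 2.64, 3.86 and 3.23 CPM in PSN1 vehicle libraries. The groups did not overlap in any line, and the common rise was 2.96-fold (log2 1.56 ± 0.16, adjusted p 1.96e-07). The promoters of ATF3, ASNS and CHAC1 are shown because they hold the same 8-base pattern. ATF3 rose in each line, while the log2 changes of ASNS and CHAC1 were negative in BXPC3 and PSN1 and positive in MIAPACA2. The pattern TGATGNAA, the letters of the composite element read by C/EBP and ATF proteins, was searched on both strands in the 250 bases before each start site in RefSeq promoters (GRCh38.p14), and capitals mark the match. It was in 4 of the 24 stress response promoters searched (16.7%), of which the fourth is that of FGF21. It was in 3.19% of all 27305 promoters and in 1.61% of the 12085 promoters of protein-coding genes tested. A match is a pattern of letters and not a site shown to be bound. The stretches are chr1:212565176-212565263 on the plus strand, chr7:97872429-97872516 on the minus strand and chr15:40953222-40953309 on the plus strand, each written along its gene.
ATF3: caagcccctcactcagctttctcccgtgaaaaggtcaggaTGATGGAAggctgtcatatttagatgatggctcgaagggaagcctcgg
ASNS: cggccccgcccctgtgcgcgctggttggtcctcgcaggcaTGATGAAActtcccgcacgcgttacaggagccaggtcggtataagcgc
CHAC1: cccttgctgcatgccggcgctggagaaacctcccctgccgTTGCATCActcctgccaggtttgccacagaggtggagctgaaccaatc

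Mitochondrial genes did not move as 1 group. Of 17 assembly factors of respiratory complex I, 6 fell and 2 rose (35.3% and 11.8%, beside 8.74% and 9.02% of all genes tested). The list median was 0.16, of the opposite sign to most calls. ACAD9, an acyl-CoA dehydrogenase that also builds complex I, had 13.9, 11.7, 12.6 and 13.2 CPM in BXPC3 AM9747 libraries, against 50.8, 51.03, 50.5 and 59.8 CPM in BXPC3 vehicle libraries. It had 13.4 to 21.3 CPM in MIAPACA2 AM9747 libraries, against 50.6 to 80.6 CPM in MIAPACA2 vehicle libraries, and 4.8 to 6.5 CPM in PSN1 AM9747 libraries, against 8.74 to 17.4 CPM in PSN1 vehicle libraries. ACAD9 was lower without overlap in each line (log2 -1.76 ± 0.15, adjusted p 2e-08). NDUFAF3 was also lower without overlap in each line (log2 -1.92 ± 0.21, adjusted p 3.4e-07). In BXPC3, NDUFAF3 spanned 3.54 to 7.16 CPM with AM9747 and 13.3 to 32.9 CPM with vehicle. In MIAPACA2, NDUFAF3 spanned 8.61 to 16.3 CPM with AM9747 and 24.8 to 54.6 CPM with vehicle. In PSN1, NDUFAF3 spanned 8.07 to 20.4 CPM with AM9747 and 42.7 to 97.1 CPM with vehicle. Another factor, NDUFAF7, fell (log2 -0.97 ± 0.15, adjusted p 4.75e-05). Of 47 nuclear genes of oxidative phosphorylation 4 fell and 1 rose, with the ATP synthase subunit ATP5F1D falling (log2 -1.31 ± 0.20, adjusted p 4.83e-05) and the complex III core protein UQCRC1 falling less (log2 -0.44 ± 0.13, adjusted p 0.0169); UQCRC1 was not called without scaling or with GC offsets (adjusted p 0.206 and 0.0658). Without PSN1, 11 of the 47 fell, and without scaling 5 rose. Of the 13 protein-coding genes of the mitochondrial genome 2 fell and none rose, at medians of -0.18 (BXPC3), -0.23 (MIAPACA2) and -1.07 (PSN1), and without scaling none was called. The count that fell was 0 to 2 when single libraries were left out, and below 2 without any of 16 of the 24.

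Lysosome and lipid lists held more falls than rises. Of the lysosome and autophagy list, 1 of 30 were higher and 7 lower, with a median log2 change of -0.06; 23.3% fell, beside 8.74% of all genes tested. The medians were -0.46 (BXPC3), -0.17 (MIAPACA2) and 0.25 (PSN1), with 2 higher and 13 lower in BXPC3 alone, 2 and 7 in MIAPACA2 and 0 and 2 in PSN1. GAA encodes the acid alpha-glucosidase. In BXPC3, GAA spanned 2.09 to 3.03 CPM with AM9747 and 18.4 to 21.1 CPM with vehicle. In MIAPACA2, GAA spanned 96.8 to 122 CPM with AM9747 and 196 to 259 CPM with vehicle. In PSN1, GAA spanned 35 to 61.2 CPM with AM9747 and 113 to 160.0 CPM with vehicle. GAA was lower without overlap in each line (log2 -1.85 ± 0.19, adjusted p 2.73e-07) by different factors (adjusted p for a difference 7.98e-05). The protease CTSD fell (log2 -0.99 ± 0.26, adjusted p 0.00846) at -1.804 (BXPC3), -1.004 (MIAPACA2) and -0.16 (PSN1), a call lost without scaling or with GC offsets (adjusted p 0.0562 and 0.0708), and its relative CTSZ rose (log2 0.57 ± 0.14, adjusted p 0.0061). Without scaling, 2 of the lysosome list rose and 2 fell at a median of 0.09, without BXPC3 2 rose and 2 fell, and without PSN1 2 rose and 11 fell. Of 33 genes of cholesterol and fatty acid synthesis, 10 fell and 2 rose (30.3% and 6.06%), with a median log2 change of -0.17, and without BXPC3 6 fell and none rose. The regulators of both branches fell, SREBF1 (log2 -1.24 ± 0.16, adjusted p 5e-06) and SREBF2 (log2 -0.57 ± 0.11, adjusted p 0.000763), as did the sterol reductase TM7SF2 (log2 -1.13 ± 0.22, adjusted p 0.000493). SREBF1 fell by different sizes in the lines, at -1.23 (BXPC3), -0.55 (MIAPACA2) and -1.98 (PSN1) (adjusted p for a difference 0.00793).

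In other metabolic lists fewer members were called. Of 32 genes of glycolysis and the hypoxia response 3 rose and 2 fell, with the phosphofructokinase PFKL falling (log2 -0.86 ± 0.12, adjusted p 1.55e-05) and the hexokinase HK2 rising (log2 0.53 ± 0.11, adjusted p 0.00129). Of 30 genes of glutathione and peroxide defence 4 fell and 2 rose (13.3% and 6.67%, beside 8.74% and 9.02% of all genes tested), and 1 rose without any of 12 of the single libraries. The peroxide-clearing enzyme CAT (log2 -1.71 ± 0.27, adjusted p 6.68e-05), the lipid peroxidase GPX4 (log2 -0.72 ± 0.11, adjusted p 6.82e-05) and the transferase GSTM3 (log2 -0.87 ± 0.14, adjusted p 0.00011) fell, with GPX4 at -0.79 (BXPC3), -0.52 (MIAPACA2) and -0.86 (PSN1). Of 35 aminoacyl-tRNA synthetases 4 fell and 3 rose, with QARS1 (log2 -0.58 ± 0.10, adjusted p 0.000171), WARS1 (log2 -0.80 ± 0.14, adjusted p 0.000263) and the mitochondrial AARS2 (log2 -0.69 ± 0.14, adjusted p 0.000718) lower and the mitochondrial YARS2 higher (log2 0.62 ± 0.17, adjusted p 0.0108). Without PSN1, 9 of the glutathione list and 8 of the synthetases fell, and without scaling 7 synthetases rose.

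**Figure D4:**
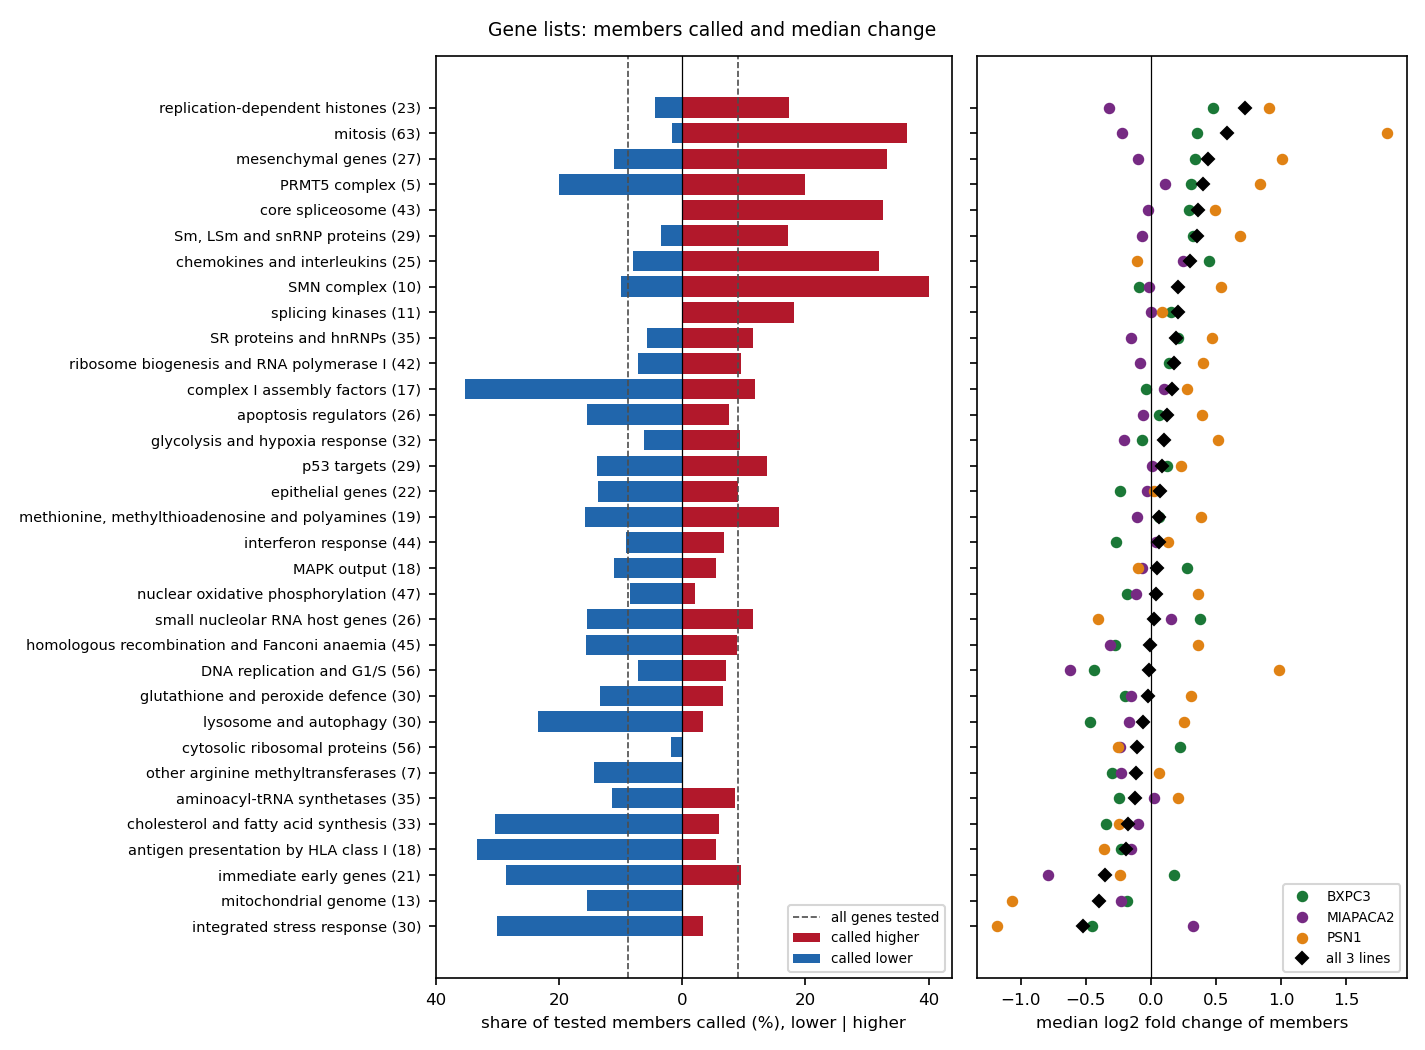
Left: share of tested members of each gene list called higher (red, to the right) or lower (blue, to the left), with the shares among all genes tested as dashed lines and the number tested in brackets. Right: median log2 change of the members over the 3 lines (black) and in each line alone (coloured). The list of mitosis and that of DNA replication and G1/S have their line medians furthest apart.

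Immediate early genes, which are induced within minutes of growth signals, held 8 of 21 members whose response differed between lines. Of the 21 tested, 6 fell and 2 rose (28.6% and 9.52%, beside 8.74% and 9.02% of all genes tested), with a median log2 change of -0.36. In BXPC3 alone 4 rose and 3 fell, in MIAPACA2 alone 1 rose and 10 fell, and in PSN1 alone 2 rose and 6 fell, at medians of 0.18 (BXPC3), -0.79 (MIAPACA2) and -0.24 (PSN1). EGR1 had 168, 148, 137 and 142 CPM in BXPC3 AM9747 libraries, against 294, 274, 278 and 288 CPM in BXPC3 vehicle libraries. It had 32.04 to 42.6 CPM in MIAPACA2 AM9747 libraries, against 215 to 317 CPM in MIAPACA2 vehicle libraries, and 85.96 to 146 CPM in PSN1 AM9747 libraries, against 333 to 639.9 CPM in PSN1 vehicle libraries. EGR1 was lower without overlap in each line (log2 -1.99 ± 0.21, adjusted p 2.58e-07), most in MIAPACA2 at log2 -2.93 (adjusted p for a difference 0.000101). FOS (log2 -1.72 ± 0.28, adjusted p 9.52e-05) and JUNB (log2 -1.03 ± 0.17, adjusted p 9.74e-05) fell, FOS at -0.59 (BXPC3), -3.21 (MIAPACA2) and -1.48 (PSN1). In the list of MAPK output genes, 2 of 18 fell, the kinase phosphatase DUSP1 (log2 -1.04 ± 0.21, adjusted p 0.000905) and the receptor signalling inhibitor SPRY1 (log2 -0.58 ± 0.13, adjusted p 0.00209), and 1 rose, beside a median of 0.04.

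Of 18 genes of the HLA class I pathway, 6 fell and 1 rose (33.3% and 5.56%), with a median log2 change of -0.19. PSMB10, a catalytic subunit of the immunoproteasome, had 22.2, 21.9, 27.2 and 25.1 CPM in BXPC3 AM9747 libraries, against 54.7, 50.7, 56.4 and 91.4 CPM in BXPC3 vehicle libraries. It had 17.1 to 19.9 CPM in MIAPACA2 AM9747 libraries, against 33.1 to 46.95 CPM in MIAPACA2 vehicle libraries, and 15.4 to 25.5 CPM in PSN1 AM9747 libraries, against 43.4 to 98.5 CPM in PSN1 vehicle libraries. PSMB10 was lower without overlap in each line (log2 -1.39 ± 0.15, adjusted p 2.84e-07). The loading factor TAPBP (log2 -0.46 ± 0.08, adjusted p 0.000296) and the immunoproteasome subunit PSMB9 (log2 -0.58 ± 0.12, adjusted p 0.00118) fell less. Of 44 interferon response genes 4 fell and 3 rose in common, with IFI35 (log2 -1.65 ± 0.17, adjusted p 1.94e-07) and PARP9 (log2 -0.59 ± 0.12, adjusted p 0.000875) lower and GBP1 higher (log2 0.66 ± 0.16, adjusted p 0.00447), and 1 to 5 rose when single libraries were left out. In BXPC3 alone 2 of the list were higher and 14 lower, in MIAPACA2 alone 6 higher and 1 lower, and in PSN1 alone 1 higher and 3 lower, at medians of -0.27 (BXPC3), 0.04 (MIAPACA2) and 0.13 (PSN1). Of 25 chemokines and interleukins, 8 rose and 2 fell (32% and 8%, beside 9.02% and 8.74% of all genes tested), with IL11 (log2 1.36 ± 0.19, adjusted p 1.1e-05) and IL32 (log2 1.18 ± 0.20, adjusted p 0.000111) higher and CXCL1 lower (log2 -0.97 ± 0.18, adjusted p 0.000315). The response of 12 of the 25 differed between lines. BXPC3 alone had 11 higher and 4 lower, MIAPACA2 alone 4 and 2 and PSN1 alone 4 and 1. The medians were 0.45 (BXPC3), 0.24 (MIAPACA2) and -0.11 (PSN1). Without BXPC3, 3 of the 25 rose and 3 fell.

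Cell cycle genes responded differently in the 3 lines. In bulk RNA, fewer cells in a phase and less RNA per cell cannot be told apart. Of 63 mitosis genes 23 rose and 1 fell (36.5% and 1.59%), at medians of 0.35 (BXPC3), -0.22 (MIAPACA2) and 1.82 (PSN1), and the response of 53 differed between lines. The spindle kinase TTK (log2 1.27 ± 0.25, adjusted p 0.000629), the kinetochore protein NUF2 (log2 1.098 ± 0.18, adjusted p 9.74e-05), the kinase AURKA (log2 1.07 ± 0.21, adjusted p 0.000773) and the motor KIF14 (log2 1.04 ± 0.17, adjusted p 9.29e-05) were among the rises, and AURKA stood at 0.86 (BXPC3), 0.13 (MIAPACA2) and 2.24 (PSN1). The number of mitosis genes that rose was 15, 14 and 12 without PSN1 vehicle replicate 1, 2 and 4, and without PSN1 as a whole 8 rose and 9 fell. Without BXPC3 10 rose, and without MIAPACA2 43. Of 56 genes of DNA replication and the G1/S step, 4 rose and 4 fell in common, and the response of 42 differed between lines, at medians of -0.44 (BXPC3), -0.62 (MIAPACA2) and 0.98 (PSN1). The helicase subunit CDC45 (log2 -1.05 ± 0.22, adjusted p 0.00118) and the polymerase subunit POLA2 (log2 -0.93 ± 0.21, adjusted p 0.00236) fell. CDC45 stood at -1.12 (BXPC3), -1.97 (MIAPACA2) and -0.04 (PSN1) and POLA2 at -1.63 (BXPC3), -0.90 (MIAPACA2) and -0.27 (PSN1). Neither was called without BXPC3 (adjusted p 0.0515 and 0.181), nor was CDC45 without MIAPACA2 (adjusted p 0.101). Without PSN1, 31 of the 56 fell and none rose; 7 fell without PSN1 vehicle replicate 2 or AM9747 replicate 1 and 8 without PSN1 vehicle replicate 3.

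Of 45 genes of homologous recombination and Fanconi anaemia 7 fell and 4 rose, with a median of -0.01, and without scaling 2 fell and 7 rose at a median of 0.14. Without PSN1, 19 fell and 3 rose. The ubiquitin ligase FANCL fell in each line (log2 -1.27 ± 0.17, adjusted p 7.19e-06; -1.39 (BXPC3), -0.84 (MIAPACA2) and -1.61 (PSN1)), while the damage kinase ATM rose (log2 0.68 ± 0.12, adjusted p 0.000301). Replication-dependent histones, of which poly(A) libraries hold little, gave 4 rises and 1 fall of 23 tested, and H1-2 rose (log2 1.09 ± 0.28, adjusted p 0.00638) at 1.42 (BXPC3), -0.33 (MIAPACA2) and 2.12 (PSN1). The call of H1-2 was lost without BXPC3 (log2 0.89, adjusted p 0.142) and without PSN1 (log2 0.54, adjusted p 0.216).

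Of 29 p53 targets 4 fell and 4 rose (13.8% each, beside 8.74% and 9.02% of all genes tested). The number of rises was 2 without 11 of the single libraries (4 of MIAPACA2 AM9747, 3 of MIAPACA2 vehicle other than replicate 2, PSN1 AM9747 replicates 2 and 4 and PSN1 vehicle replicates 3 and 4). TP53I3 encodes a quinone oxidoreductase. In BXPC3, TP53I3 spanned 0.73 to 1.07 CPM with AM9747 and 2.78 to 6.996 CPM with vehicle. In MIAPACA2, TP53I3 spanned 6.12 to 12.2 CPM with AM9747 and 25.3 to 29.2 CPM with vehicle. In PSN1, TP53I3 spanned 3.4 to 5.99 CPM with AM9747 and 9.15 to 16.6 CPM with vehicle. TP53I3 was lower without overlap in each line (log2 -1.66 ± 0.19, adjusted p 7.16e-07). The mitochondrial reductase FDXR (log2 -1.197 ± 0.19, adjusted p 6.68e-05) and the kinase PLK3 (log2 -0.65 ± 0.13, adjusted p 0.000944) fell and the stress sensor GADD45A rose (log2 0.46 ± 0.12, adjusted p 0.00876). CDKN1A, the cell cycle inhibitor p21, was not called (log2 0.09 ± 0.16, adjusted p 0.763), and nor was the p53 inhibitor MDM4 (log2 -0.25 ± 0.15, adjusted p 0.258), whose response differed between lines, at 0.33 (BXPC3), -0.05 (MIAPACA2) and -1.06 (PSN1) (adjusted p 0.000771). MYC, a driver of growth, was not called either (log2 -0.36 ± 0.14, adjusted p 0.0735) but passed in several other settings, among them DESeq2 (log2 -0.37, adjusted p 0.0291). Of 26 apoptosis regulators 2 rose and 4 fell (7.69% and 15.4%). Both rises, the BH3-only gene PMAIP1 (log2 0.94 ± 0.12, adjusted p 4.55e-06) and the inhibitor BIRC3 (log2 0.85 ± 0.15, adjusted p 0.000186), had the same sign in each line, as had the falls of BOK (log2 -1.05 ± 0.15, adjusted p 1.46e-05) and BMF (log2 -0.63 ± 0.14, adjusted p 0.00282).

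Of 27 mesenchymal genes 9 rose and 3 fell (33.3% and 11.1%), at medians of 0.34 (BXPC3), -0.10 (MIAPACA2) and 1.004 (PSN1). Without BXPC3, 5 rose and 3 fell. SPARC, named above, the collagen COL3A1 (log2 1.66 ± 0.22, adjusted p 6.03e-06) and the repressor SNAI1 (log2 0.95 ± 0.17, adjusted p 0.000297) rose and the calcium-binding protein S100A4 fell (log2 -0.71 ± 0.14, adjusted p 0.000609). COL3A1 had no read in any MIAPACA2 vehicle library, and in the mean of the line responses it was not called (log2 1.58, adjusted p 0.155). Of 22 epithelial genes 2 rose, EPCAM (log2 1.16 ± 0.34, adjusted p 0.0169) and the membrane protease ST14 (log2 0.75 ± 0.20, adjusted p 0.00784), and 3 fell, among them the mucin MUC1 (log2 -1.21 ± 0.35, adjusted p 0.0177) and the transcription factor ELF3 (log2 -0.42 ± 0.12, adjusted p 0.0147). In BXPC3, EPCAM spanned 117 to 161 CPM with AM9747 and 104 to 136 CPM with vehicle. In MIAPACA2, EPCAM spanned 0.233 to 1.19 CPM with AM9747 and 0 to 0.11 CPM with vehicle. In PSN1, EPCAM spanned 16.9 to 21.4 CPM with AM9747 and 5.68 to 15.4 CPM with vehicle. The BXPC3 groups overlapped for EPCAM and the MIAPACA2 levels were near 0. MUC1 was called in opposite directions in single lines, at -2.53 (BXPC3), 0.77 (MIAPACA2) and -1.73 (PSN1) (adjusted p alone 8.58e-06, 0.0353 and 0.0357). Its common call was lost without BXPC3 (log2 -0.46, adjusted p 0.54), without PSN1 (log2 -0.91, adjusted p 0.163) and with the replicate block (log2 -1.19, adjusted p 0.0522). With voom EPCAM was not called (log2 0.42, adjusted p 0.143), and without scaling ELF3 was not (log2 -0.27, adjusted p 0.201). The EPCAM call was also lost without MIAPACA2 (adjusted p 0.054) and without PSN1 (adjusted p 0.0987). ST14 was called in no line alone (adjusted p 0.0713 in BXPC3, 0.175 in MIAPACA2 and 0.255 in PSN1). Leaving out BXPC3 ended the calls of ST14 and ELF3 (adjusted p 0.0778 and 0.39).

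Of 42 genes of ribosome biogenesis and RNA polymerase I 4 rose and 3 fell, and NOP2 had by far the largest change among those named, beside TAF1D, a subunit of the polymerase I selectivity factor and a snoRNA host (log2 0.70 ± 0.12, adjusted p 0.000196), and WDR43, a nucleolar protein of ribosome assembly (log2 0.50 ± 0.12, adjusted p 0.00444). Of 56 cytosolic ribosomal proteins RPL12 fell (log2 -0.45 ± 0.16, adjusted p 0.0438) and none rose. The RPL12 call was lost without scaling, with GC offsets and without 15 of the 24 single libraries (adjusted p up to 0.0991). Without scaling 12 of the biogenesis list rose, and 9 with GC offsets. Without BXPC3, 5 of the ribosomal proteins fell. Small nucleolar RNA host genes gave 3 rises and 4 falls of 26.

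The called genes differed from the rest in base composition and intron length. Among 10971 protein-coding genes with introns and a mean of 5 CPM or more, the median GC content of the transcript was 46.6% for genes that rose, 56.5% for genes that fell and 47.9% for genes not called, in GENCODE 29. The median of a gene's mean intron length was 2761 bases for genes that rose, 1828 for genes that fell and 3204 for genes not called. In the decile of lowest GC content 13.5% rose and 4.46% fell, and in the decile of highest GC content 5.29% rose and 29.2% fell. In the decile of shortest introns 8.38% rose and 23.2% fell, and in that of longest introns 7.47% rose and 6.29% fell.

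**Figure D5:**
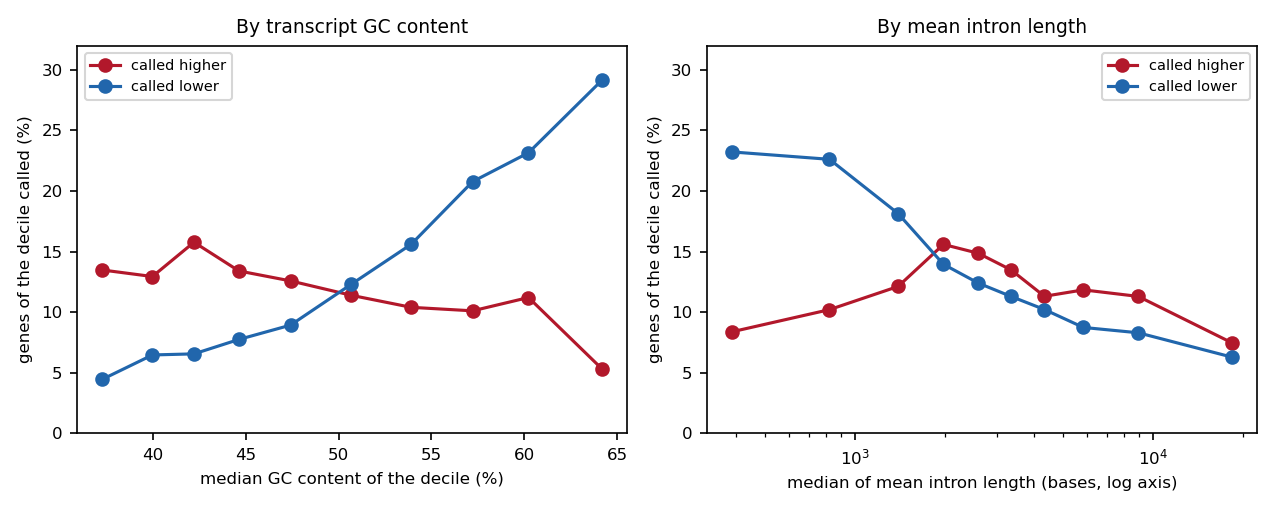
Share of protein-coding genes called higher (red) or lower (blue) in deciles of genes by GC content of the transcript (left) and by mean intron length (right, log axis). The share that fell climbs from 4.46% to 29.2% over GC content and drops from 23.2% to 6.29% over intron length.

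GC content and intron length go together, and the share that fell moved with each within terciles of the other. Among genes in the upper tercile of GC content, 26.7% fell where introns were short and 16.3% where they were long, and in the lower tercile 7.88% and 5.07% fell. In that lower tercile 21% of genes with short introns rose and 10.3% of those with long introns. In the upper tercile the share that rose was 8.91% with short and 9.49% with long introns, and in the middle one it was 10.3% and 10.9%. The median log2 change went with GC content most in PSN1, with 0.48 in the lowest decile and -0.41 in the highest, against 0.01 and -0.21 in BXPC3 and -0.01 and -0.13 in MIAPACA2. Offsets that level the dependence on GC content in each library left 4426 genes called, and 3538 (87%) of the genes called in the first place were among them in the same direction. The part of library preparation or RNA quality in the GC gradient was not tested.

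Some common calls hid a line that did not follow. Of the called genes 331 had the opposite sign in 1 line, which was MIAPACA2 for 196, PSN1 for 74 and BXPC3 for 61, and in that line 5, 0 and 1 of them were called on their own. Of the rises whose response differed between lines, PRPF39, a U1-associated splicing protein, stood at 1.901 (BXPC3), 1.12 (MIAPACA2) and -0.07 (PSN1), and the ubiquitin ligase RNF216 at 1.11 (BXPC3), 1.75 (MIAPACA2) and -0.05 (PSN1). The kinesin KIF18B stood at 1.14 (BXPC3), -0.09 (MIAPACA2) and 1.95 (PSN1) and the tubulin TUBB6 at 1.03 (BXPC3), -0.10 (MIAPACA2) and 1.29 (PSN1). Among the falls, LINC00963 stood at -2.14 (BXPC3), 0.35 (MIAPACA2) and -2.28 (PSN1), the microsomal pentose phosphate enzyme H6PD at -1.66 (BXPC3), 0.06 (MIAPACA2) and -1.15 (PSN1), CRELD1 at -0.94 (BXPC3), 0.04 (MIAPACA2) and -1.22 (PSN1) and the aldehyde dehydrogenase ALDH3B1 at -1.22 (BXPC3), 0.04 (MIAPACA2) and -1.05 (PSN1). For these 8 genes PSN1 was the line near 0 for PRPF39 and RNF216 and MIAPACA2 for the other 6, and none was called in the odd line on its own.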

How the data were processed

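Poly(A) RNA was measured in 24 libraries. Per the labels' protocols, RNA was taken with a column kit and made into strand-specific libraries. Per the submitters' processing notes, the authors used fastp 0.19.8, HISAT2 2.2.0 and the build GRCh38, with DESeq2 1.34.0 run in R 4.0.2. The counter and the annotation were not given in the sources used here. As deposited, the table gives raw counts of reads for 60366 entries in 24 columns. GENCODE 29 held 56271 of these entries and was used for names, biotypes, GC content and coordinates.

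Counts were filtered with filterByExpr by group, scaled with TMM and fitted by edgeR 4.0.16 with its quasi-likelihood test (R 4.3.3, limma 3.58.1). The fit had line and treatment as terms, with 20 residual degrees of freedom over 22883 genes, and an adjusted p (Benjamini-Hochberg) below 0.05 counts as called. Each line was also fitted alone with its own filter, and a fit of the 6 groups tested a difference in response. Fold changes are AM9747 over vehicle, a log2 change carries its standard error (±), and levels are CPM with TMM scaling. Exceptions are the marker sums and the ductal marker levels given just before them, which are CPM of the total. The procedure was tested on simulated data. No 2 libraries of a group agreed within sampling noise.

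Genes named are 8 key genes, the 12 largest rises and falls of protein-coding genes with a mean of 5 CPM or more and the same sign in each line, the 6 of smallest p in each direction, 4 noncoding and 4 oppositely signed genes in each direction, and up to 4 members per list. Members and lists were chosen with earlier results of these data known. Single members were left out where they bore on no comparison, ASNS and CHAC1 were chosen after their values were seen, and no set test was run. Alternatives tried were DESeq2 1.42.0, voom with group weights, the mean of the line responses, other scalings and filters, a mitochondrial covariate, GC offsets, a replicate block, and leaving out lines and single libraries. Totals ran from 22.4 to 45.6 M counts per library, so 1 CPM stood for 22.4 counts or more before scaling.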

Additional observations from a re-analysis of the deposited data

Results flagged for a closer look

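A library stood apart from the other 3 of its group, by a gap test at the 95% level, in 22 of 218 group levels. Chance alone gives about 1 in 20 for a level taken singly. The levels share the same libraries and are not independent, so the count cannot be read against that rate. BXPC3 vehicle replicate 4 carried 11 of the 22. It was the highest of its group for WDR77 (107 CPM), NOP2 (127 CPM), PCK2 (110.3 CPM), ACAD9 (59.8 CPM), COPRS (18.8 CPM), TP53I3 (6.996 CPM), NDUFAF3 (32.9 CPM), PSMB10 (91.4 CPM) and CHAC1 (44.4 CPM). It was the lowest for MAT2A (209 CPM), and the highest in the mitochondrial share of its counts, at 8.98%. In PSN1 vehicle replicate 1 was the highest library for PCK2 at 95.7 CPM, SUMF2 at 73.3 CPM and COPRS at 34.1 CPM. In MIAPACA2 vehicle replicate 4 was the lowest library for PCK2 at 46.5 CPM. In PSN1 AM9747 replicate 3 was the highest library for ACP2 at 8.17 CPM. In BXPC3 vehicle replicate 2 was the lowest library for SNORD3A at 0.106 CPM. In PSN1 AM9747 replicate 2 was the lowest library for LINC00894 at 0.821 CPM. In MIAPACA2 AM9747 replicate 4 was the highest library for PSAT1 at 70.9 CPM. In PSN1 vehicle replicate 3 was the highest library for PSMB10 at 98.5 CPM. In MIAPACA2 AM9747 replicate 3 was the highest library for EGR1 at 42.6 CPM. In PSN1 AM9747 replicate 4 was the lowest library for PRSS1 at 0.344 CPM.

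The test of a difference in response between the lines, fitted over all genes, called 47 of the 141 named genes. Adjusted p values of the largest and most firmly called changes were 6.19e-05 for MARCHF4, 0.00155 for MFNG, 2.99e-06 for PCK2, 0.00515 for PGGHG, 0.0122 for EPHX2, 0.041 for NOXA1, 0.0353 for RAB26, 1.06e-06 for CBS, 0.00106 for PHYKPL, 0.0363 for ACAD9 and 0.0134 for SH3GLB2. Values of adjusted p of the genes that do not encode proteins were 1.59e-05 for AC009299.1, 0.0066 for LINC00894, 0.021 for RRP7BP and 3.43e-07 for LINC00963. Adjusted p values of genes with the opposite sign in 1 line were 0.000641 for PRPF39, 1.91e-05 for KIF18B, 0.000586 for TUBB6, 0.00733 for RNF216, 0.000953 for H6PD, 0.00226 for CRELD1 and 0.00378 for ALDH3B1. Values of adjusted p of splicing, p53 and cell cycle genes were 0.0386 for RBM39, 0.00535 for DDX23, 0.0231 for PRPF3, 0.000771 for MDM4, 0.0246 for FDXR, 0.00131 for CDC45, 0.00236 for NUF2, 0.00542 for TTK, 9.94e-06 for AURKA and 0.000677 for H1-2. Adjusted p values of stress response, lipid and lysosome genes were 0.0152 for ATF3, 0.0361 for DDIT4, 7.94e-05 for PSAT1, 5.21e-10 for ASNS, 6.52e-08 for CHAC1, 0.00793 for SREBF1 and 7.98e-05 for GAA. Values of adjusted p of signalling, epithelial and mesenchymal genes and of the acinar marker were 0.000101 for EGR1, 0.000277 for FOS, 0.00247 for DUSP1, 0.00232 for EPCAM, 5.14e-05 for MUC1, 0.00881 for SNAI1, 0.0294 for IL32 and 0.00123 for PRSS1. What sets these differences was not tested, and for MIAPACA2 dose and line cannot be told apart.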

How the results depend on the processing

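The count of 4065 called genes stayed within 1.5 times under the other tests, scalings and filters, with the exceptions given here. voom with group weights called 6397 genes, 3352 higher and 3045 lower. Without scaling beyond the total count 3125 were higher and 1190 lower (72.4% of the calls were higher, against 50.8%), with 80% of the first calls shared in the same direction. Without BXPC3 the fit called 1965 genes, 905 higher and 1060 lower, and it shared 43.2% of the first calls. MIAPACA2 alone called 2456, 1218 higher and 1238 lower, and PSN1 alone called 1954, 826 higher and 1128 lower. DESeq2's likelihood ratio test of a difference between lines called 4871 genes. Without single libraries the called genes ran from 3593 to 4443, the higher ones from 1806 to 2209, the lower ones from 1756 to 2275 and those that differed between lines from 1994 to 6105. The cause of these shifts was not tested. Lines differ in spread, and the fit assumes 1 dispersion per gene over the lines.

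A replicate block (12 blocks of 2) called 3293 genes, 1718 higher and 1575 lower. The numbers were not taken as pairs, since same-numbered libraries correlated at -0.53 to 0.70, with 8 of 12 pairs over 0.1, and 3 AM9747 libraries correlated best with their own number. GC offsets were chosen after seeing the data; they called 4426 genes, and 3579 with the replicate block. Of the 141 named genes, 37 lost their call without BXPC3, 14 without MIAPACA2 and 13 without PSN1, and single libraries left out ended 44 calls and made 3 in 3384 fits of a gene, with no change of sign.

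For 12 genes called in common or in the line itself, the sign in a single line was opposite to the common one. In MIAPACA2 alone the log2 change was -0.0885 for KIF18B, -0.10 for TUBB6, 0.35 for LINC00963, 0.055 for H6PD, 0.0446 for CRELD1, 0.042 for ALDH3B1, 0.77 for MUC1, -0.33 for H1-2, 1.46 for ASNS and 0.43 for CHAC1, and in PSN1 alone it was -0.065 for PRPF39 and -0.0539 for RNF216.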
